A study of Arabidopsis thaliana with 8 samples.

Results

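Contacts between distant stretches of the large single copy region of the Arabidopsis thaliana plastid genome were described, the region that lies between the copies of the inverted repeat and carries most photosynthesis genes. The members were the pairs of 1-kb bins with both bins in the region, which spans positions 1 to 84000 of the plastid chromosome (Pt) in the deposited TAIR10 map, and with bin indices differing by more than 20. They numbered 2016 of the 12090 bin pairs of the map. No measured value entered this choice. The bins were summed into 17 blocks of 5 kb, the last of which held 4 bins, and the members then formed 91 block pairs.

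Chloroplast membrane samples came from rosette leaves of wild-type Col0 plants aged 14 days, 5 g of leaves per preparation. The 4 libraries labelled EGS were crosslinked with EGS, an amine-reactive reagent (5 mM, 45 min), followed by 4% formaldehyde (4 h). The 4 libraries labelled nox were non-crosslinked negative controls. The labels give the same protocol text, crosslinking included, for all 8 libraries, so the treatment label alone tells the groups apart. They do not say whether replicates came from separate plants or preparations, and p-values here measure the spread between these samples.

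Plastid DNA is packed with proteins into nucleoids, which lie at the envelope and thylakoid membranes of the chloroplast. Hi-C joins DNA ends that are close together and counts the joined fragments, so that crosslinked chromatin reports folding and non-crosslinked material reports ligation without fixed contacts. The large single copy region holds genes of both photosystems, of the cytochrome b6f complex, of ATP synthase and of the large Rubisco subunit, beside genes of the plastid RNA polymerase and of ribosomal proteins.

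The members held 10479, 6180, 3557 and 2284 contacts in EGS replicates 1 to 4, against 11834, 7552, 661 and 1030 contacts in nox replicates 1 to 4. Total contacts per library ranged from 351828 to 543800 in the EGS group and from 357017 to 708524 in the nox group, and replicates 1 and 2 were the deeper libraries of both groups. Nox replicates 3 and 4 were the sparsest at long range: 1486 of the 2016 pairs had no contact in nox replicate 3, against 18 in nox replicate 1. For this reason values are repeated for replicates 1 and 2 (the deeper libraries) and for replicates 3 and 4 (the shallower ones). Per-library measures have no test there, since 2 libraries per group are too few for a permutation test, and edgeR fits within these classes rest on 2 libraries per group.

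Long-range contacts of the region were a small share of each library. They made up 1.93%, 1.19%, 0.966% and 0.649% of all contacts in EGS replicates 1 to 4, and 1.67%, 1.22%, 0.185% and 0.252% in nox replicates 1 to 4. The ranges overlapped, and counting error was small beside the spread, with 95% Wilson intervals of 1.89% to 1.96% in EGS replicate 1 and 0.172% to 0.200% in nox replicate 3. The means were 1.18% ± 0.543 in EGS and 0.832% ± 0.732 in nox libraries (SD, n = 4 each; two-sided exact permutation test, p = 0.486, adjusted over 5 per-library measures p = 0.607). The difference of 0.350 percentage points was 0.589 among the shallower libraries and 0.111 among the deeper ones, and it was 0.102 without EGS replicate 1.

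Among all contacts over 20 kb, the region took a smaller part in every EGS library than in any nox library, with an adjusted p that did not pass. Distance was folded for this measure, so that both images of a repeat bin count as the same place, and the members were 26.6% of the 7590 bin pairs over 20 kb. They took 29.1%, 31.1%, 30.3% and 30.6% of such contacts in EGS replicates 1 to 4, and 31.8%, 31.7%, 33.5% and 32.6% in nox replicates 1 to 4. Every EGS library lay below every nox library, but the nearest libraries were within counting error of each other: the 95% Wilson interval was 30.5% to 31.8% in EGS replicate 2, against 31.1% to 32.3% in nox replicate 2. The group means of 30.3% ± 0.845 in EGS and 32.4% ± 0.800 in nox libraries (SD, n = 4 each) differed by -2.11 percentage points (two-sided exact permutation test, p = 0.0286, the smallest that 70 assignments allow; adjusted p = 0.0714, which does not pass 0.05). Among the deeper libraries the difference was -1.65, and among the shallower ones -2.58.

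Up to 70 kb, contacts were sparser at larger distances in the EGS libraries, while the nox libraries showed no such fall. Relative to the library's mean over all members, set to 1, pairs 21 to 30 kb apart had 1.07, 1.12, 1.11 and 1.15 contacts per bin pair in EGS replicates 1 to 4, and 1.01, 0.974, 1.04 and 0.967 in nox replicates 1 to 4. At 61 to 70 kb the values were 0.861, 0.769, 0.806 and 0.878 in EGS libraries, and 1.05, 1.02, 1.09 and 1.12 in nox libraries. The groups did not overlap in either band or at 31 to 40 kb, and overlapped in the bands from 41 to 60 kb. In the last band, from 71 to 83 kb, which joins the psbA end of the region to the ribosomal protein genes at its other end, all EGS libraries were higher than at 61 to 70 kb, at 1.00, 0.993, 0.916 and 0.921 in replicates 1 to 4. The groups overlapped again in this band, at 0.957 ± 0.0452 in EGS and 1.00 ± 0.168 in nox libraries (SD, n = 4 each).

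**Figure D1:**
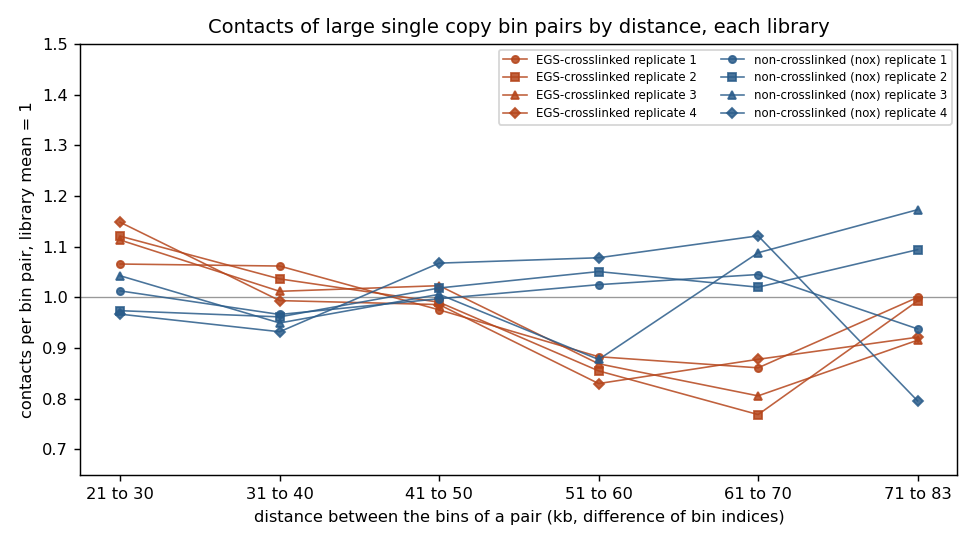
Contacts per member bin pair in each library (y axis, library mean set to 1) by distance between the bins in kb (x axis); lines join the bands of 1 library, with EGS libraries in red and nox libraries in blue. The EGS libraries lie between 1.07 and 1.15 at 21 to 30 kb and between 0.769 and 0.878 at 61 to 70 kb, while the nox libraries lie between 1.02 and 1.12 at 61 to 70 kb.

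The ratio of contacts per bin pair at 21 to 40 kb to those at 61 to 83 kb was 1.17, 1.28, 1.27 and 1.21 in EGS replicates 1 to 4, and 0.982, 0.927, 0.896 and 0.938 in nox replicates 1 to 4. All EGS ratios were above 1 and all nox ratios below it. The group means of 1.23 ± 0.0518 in EGS and 0.936 ± 0.0355 in nox libraries (SD, n = 4 each) differed by 0.298 (two-sided exact permutation test, p = 0.0286; adjusted p = 0.0714). Among the deeper libraries the ratios differed by 0.274, and among the shallower ones by 0.321. Set against block totals, by dividing observed contacts by those that the totals of the blocks give, the ratio was 1.04 ± 0.0271 in EGS and 1.00 ± 0.0579 in nox libraries (SD, n = 4 each). These overlapping values differed by 0.0401 (two-sided exact permutation test, p = 0.286). Among the deeper libraries the difference was 0.00188, and among the shallower ones 0.0784. Blocks in the middle of the region have no partner at 61 to 83 kb, so block totals take up part of any fall with distance, and how much was not tested.

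The blocks with many long-range contacts were only partly the same in both groups. Each block was given as its contacts per bin pair relative to the library mean of 1. In EGS libraries block means ran from 0.790 to 1.28, in nox libraries from 0.785 to 1.25. Blocks 2, 6, 7 and 11 had means above 1 in both groups. Block 7 was the highest in nox libraries at 1.25 and had 1.16 in EGS libraries, and block 4 was the lowest in both groups. Blocks 1, 8 and 10 were above 1 in EGS libraries alone, and blocks 3, 12, 14 and 16 in nox libraries alone. Over the 17 blocks, the correlation of the log2 values of these profiles between libraries averaged 0.918 within the EGS group, 0.838 within the nox group and 0.277 between groups. Every contact enters the totals of 2 blocks, so blocks are not independent, and these values are descriptions.

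Block totals were tested with edgeR's quasi-likelihood test in a table of all blocks by partner region, scaled by TMM over the whole map. Of the 84 rows tested, 70.2% passed an adjusted p of 0.05, with 34.5% of all rows higher and 35.7% lower in EGS libraries. Of the 17 large single copy blocks 9 passed, 2 higher and 7 lower. Normalised values of the groups did not overlap in 10 of the 17, against 71.4% of all rows. The split depended on scaling. With the large single copy rows fitted alone, 6 blocks were higher and 6 lower, 8 of the 9 blocks passing in both fits with the same sign, and the median log2 change of the 17 moved to 0.0078, from -0.12 under whole-map scaling. Log2 changes below are those of whole-map scaling, EGS over nox.

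Block 10 (Pt 45001 to 50000) showed the largest increase. It holds rps4, a ribosomal protein gene, trnL and trnF, which encode transfer RNAs, and ndhJ and ndhK, which encode subunits of the NADH dehydrogenase-like complex of cyclic electron flow. Its relative contact was 1.25, 1.29, 1.31 and 1.23 in EGS replicates 1 to 4, and 0.953, 0.887, 0.922 and 0.919 in nox replicates 1 to 4. All EGS libraries were above their average of 1 and all nox libraries below it, and the log2 change was 0.33 ± 0.070 (SE; edgeR adjusted p = 0.00103).

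Block 1 (Pt 1 to 5000) also rose. It holds psbA, which encodes the D1 protein of the photosystem II reaction centre, and matK, which encodes an intron maturase, with trnH and trnK. Its relative contact was 1.25, 1.26, 1.35 and 1.26 in EGS replicates 1 to 4, and 0.934, 1.02, 1.00 and 0.821 in nox replicates 1 to 4. The groups did not overlap, and the log2 change was 0.29 ± 0.080 (SE; edgeR adjusted p = 0.00548). In the shallower libraries alone neither block passed, with log2 changes of 0.28 for block 10 and 0.37 for block 1 (edgeR adjusted p = 0.0528 for both).

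The largest decrease was in block 3 (Pt 10001 to 15000), which holds the ATP synthase genes atpA, atpF, atpH and atpI. Its relative contact was 0.861, 0.834, 0.709 and 0.890 in EGS replicates 1 to 4, and 1.12, 1.16, 0.993 and 1.19 in nox replicates 1 to 4. Every EGS library was below every nox library, with a change of -0.59 ± 0.083 on the log2 scale (SE; edgeR adjusted p = 5.66e-05).

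Block 14 (Pt 65001 to 70000) holds petL and petG, which encode small subunits of the cytochrome b6f complex, psaJ of photosystem I, the ribosomal protein genes rpl33, rps18, rpl20 and rps12, and part of clpP. It had 0.920, 0.898, 0.919 and 0.916 in EGS replicates 1 to 4, and 1.11, 1.18, 1.18 and 1.20 in nox replicates 1 to 4. The groups were far apart beside their spread, and the log2 change was -0.48 ± 0.069 (SE; edgeR adjusted p = 6.83e-05).

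The other named decreases were smaller. Block 16, whose genes include petB and petD of the cytochrome b6f complex, the polymerase subunit gene rpoA and rpl36, had a relative contact of 0.902 ± 0.0234 in EGS and 1.04 ± 0.0561 in nox libraries (SD, n = 4 each; log2 change -0.34, edgeR adjusted p = 0.000820). Block 2, with psbK and psbI of photosystem II, rps16 and several transfer RNA genes, had 1.07 ± 0.0321 in EGS and 1.22 ± 0.0562 in nox libraries (SD, n = 4 each; log2 change -0.32, edgeR adjusted p = 0.00332). Block 12 changed by -0.26 (edgeR adjusted p = 0.00946). It holds part of rbcL, accD of acetyl-CoA carboxylase, psaI and ycf4, a photosystem I assembly factor gene. The relative contact of block 12 overlapped between the groups, at 0.897 to 1.04 in EGS and 0.986 to 1.15 in nox libraries, with EGS replicate 4 the highest of its group, and its change did not pass over 30 kb, with member contacts as library size or in the shallower libraries alone.

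Of blocks 5 to 9 and 11, with rpoB and several highly transcribed genes, 1 passed under whole-map scaling. Block 11, with part of rbcL, the Rubisco large subunit gene, and atpB and atpE, had 1.15 ± 0.00938 in EGS and 1.07 ± 0.0284 in nox libraries (SD, n = 4 each). These ranges did not overlap, but the log2 change of -0.032 under whole-map scaling did not pass (edgeR adjusted p = 0.667), whereas with the region fitted alone it was 0.10 and passed (edgeR adjusted p = 0.0163). Blocks 8 and 9, which hold psaA and psaB, the photosystem I core genes, had log2 changes of 0.082 and 0.054 that did not pass (edgeR adjusted p = 0.313 and 0.552). Fitted alone, both passed at 0.19, larger in size than the -0.16 of block 2 and the -0.13 of block 12 in that fit. The relative contact of block 8 was 1.07 ± 0.0215 in EGS and 0.886 ± 0.110 in nox libraries (SD, n = 4 each), with groups apart. Block 7, with psbD and psbC of photosystem II, changed by -0.20 and did not pass (edgeR adjusted p = 0.0620). The rpoB gene of the plastid polymerase lies in blocks 5 and 6. Block 5 was low in both groups, at 0.810 ± 0.0333 in EGS and 0.796 ± 0.0550 in nox libraries (SD, n = 4 each), and block 6, which also holds petN and psbM, fell by 0.26 on the log2 scale, as much as block 12 (edgeR adjusted p = 0.00846).

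**Figure D2:**
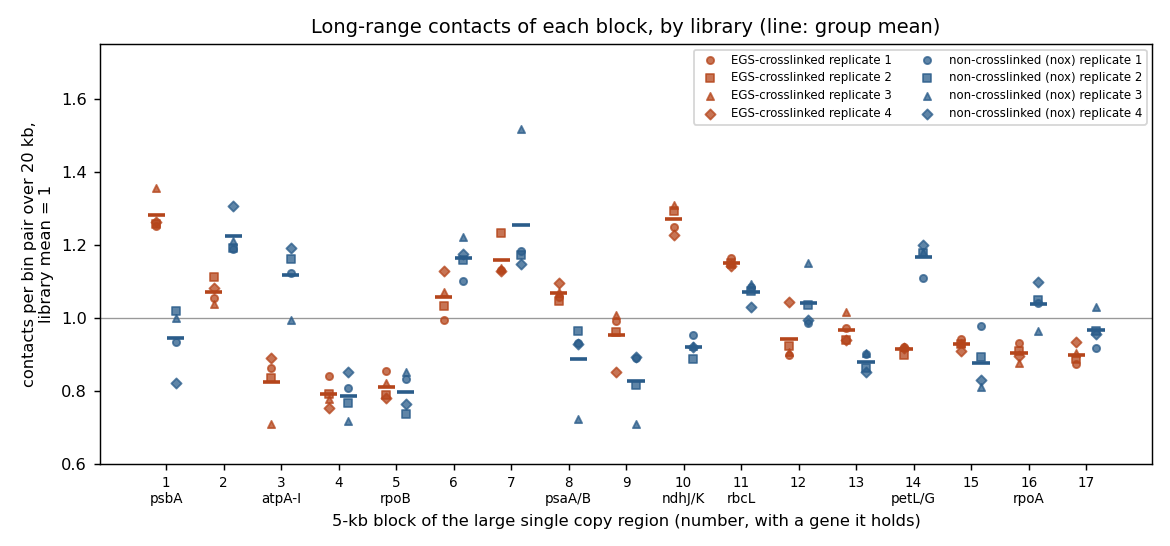
Contacts per member bin pair of each 5-kb block (y axis, library mean set to 1) against block number (x axis), 1 point per library and a line at the group mean, EGS left of nox. Blocks 1 and 10 lie above 1.2 in all 4 EGS libraries and at or below 1.02 in the nox libraries, and block 3 is lower in all EGS libraries.

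No difference was detected in how uneven the blocks were at this block size. The coefficient of variation over the 17 blocks, less its counting part, was 0.143 ± 0.0159 in EGS and 0.139 ± 0.0271 in nox libraries (SD, n = 4 each; two-sided exact permutation test, p = 0.83). With 10-kb blocks the difference was 0.0687 and with pairs over 30 kb it was 0.0405, both with groups that did not overlap (two-sided exact permutation tests, p = 0.0286).

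The largest changes of single bins, in both directions, exceeded the largest changes of blocks. A block pools its bins, and there are more bins than blocks. The part of this in the larger extremes was not tested. Of 375 rows of bins by partner region, 59.7% passed (edgeR, adjusted p of 0.05), 24.8% higher and 34.9% lower. Of the 84 large single copy bins 52 passed, 14 higher and 38 lower, and normalised values did not overlap in 49, against 51.2% of all rows. Fitted alone, 31 bins were higher and 32 lower, 46 of the 52 passing in both fits with the same sign, and the median log2 change moved to 0.030 from -0.14. Between libraries of different groups the log2 bin profiles correlated at -0.188 on average over the 84 bins, against 0.818 within the EGS group and 0.788 within the nox group.

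The largest decrease was at petL and petG (bin 66, Pt 65001 to 66000). Its relative contact was 0.701, 0.696, 0.516 and 0.608 in EGS replicates 1 to 4, and 1.74, 1.93, 2.17 and 2.09 in nox replicates 1 to 4. It was the highest bin of the region in nox libraries by its mean of 1.98 and among the low ones in EGS libraries at 0.630, a change of -1.74 ± 0.13 on the log2 scale (SE; edgeR adjusted p = 5.54e-10).

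At atpH (bin 14, Pt 13001 to 14000), which encodes the ring subunit of ATP synthase, relative contact was 0.639, 0.665, 0.453 and 0.459 in EGS replicates 1 to 4, and 1.46, 1.61, 1.46 and 1.84 in nox replicates 1 to 4. The lowest nox library was far above the highest EGS library, and the log2 change was -1.62 ± 0.13 (SE; edgeR adjusted p = 9.73e-10). At trnC (bin 28, Pt 27001 to 28000), the cysteine transfer RNA gene, relative contact was 0.576 ± 0.139 in EGS and 1.51 ± 0.0833 in nox libraries (SD, n = 4 each), with a log2 change of -1.54 (edgeR adjusted p = 5.13e-09). Bin 83 with the ribosomal protein genes rpl16 and rps3 and bin 69 with rps18 and rpl20 fell by 1.14 and 1.09 on the log2 scale (edgeR adjusted p = 7.04e-08 and 6.44e-08).

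The largest increase was inside rpoB (bin 26, Pt 25001 to 26000). Its relative contact was 1.19, 1.16, 1.16 and 1.27 in EGS replicates 1 to 4, and 0.515, 0.590, 0.284 and 0.273 in nox replicates 1 to 4. By its mean the bin was the lowest of the region in nox libraries, though not in nox replicates 2 and 3. Nox replicates 3 and 4 held 4 and 6 contacts there, and the log2 change was 0.96 ± 0.14 (SE; edgeR adjusted p = 2.85e-06). At trnV (bin 52, Pt 51001 to 52000), the valine transfer RNA gene, relative contact was 1.71 ± 0.215 in EGS and 0.741 ± 0.0879 in nox libraries (SD, n = 4 each), a log2 change of 0.88 (edgeR adjusted p = 2.65e-06). It was the highest bin of the region in EGS libraries by its mean and, of the single libraries, in EGS replicate 4.

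Bin 2, which holds part of psbA and part of trnK, had 1.63 ± 0.143 in EGS and 0.803 ± 0.116 in nox libraries (SD, n = 4 each; log2 change 0.72, edgeR adjusted p = 4.88e-05). Bin 48 with trnL rose by 0.64 and bin 53 with trnM, atpE and atpB, which encode ATP synthase subunits, rose by 0.55 (edgeR adjusted p = 6.19e-05 and 0.000735). Transfer RNA genes thus lay both in bins that rose and, at trnC, in one of the bins that fell most.

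The same bins were followed to partners outside the members, in the same fit. Contacts of the petL and petG bin with the inverted repeat changed by -0.99 and with the small single copy region by -2.85 on the log2 scale, beside -1.74 within the large single copy region (edgeR adjusted p = 2.12e-06, 1.80e-09 and 5.54e-10). The atpH bin gave -0.83, -2.10 and -1.62 and the trnC bin -1.22, -2.47 and -1.54 in the same order of partners, all past the threshold. The bin of rps18 and rpl20 also passed with each partner, at -0.44 with the repeat and -1.63 with the small single copy region, beside its -1.09 among the members. The bin of rpl16 and rps3 did not pass with the repeat, at -0.31 (edgeR adjusted p = 0.154), and passed with the small single copy region at -1.76. The rpoB bin gave 1.35, 0.74 and 0.96, all past it too. For the bins of trnV, psbA, trnL and trnM the changes with the repeat were 1.34, 0.83, 1.17 and 1.20 and passed, while those with the small single copy region, from -0.060 to 0.25, did not (edgeR adjusted p = 0.193 or more). These rows share libraries and scaling, and differences between partner regions were not tested.

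The long-range profile was then set beside contacts of each bin with itself, which the member rule leaves out. Over the 84 bins, same-bin and long-range contacts correlated at Pearson r = -0.36, -0.13, -0.31 and -0.24 in EGS replicates 1 to 4, and at 0.83, 0.76, 0.72 and 0.76 in nox replicates 1 to 4. In nox libraries the bins rich in same-bin contacts were thus also those rich in long-range contacts, and in no EGS library was this so. Spearman's rho ran from -0.31 to -0.052 in EGS and from 0.70 to 0.82 in nox libraries. The same-bin profiles themselves were alike, with r = 0.915 between the group means. Bins of a library share its depth and are not independent, so these correlations are descriptions of the libraries. The part of base composition, which can differ between bins, was not tested.

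The 5 bins named for falling had same-bin contacts of 1.03 to 2.58 in EGS and 1.40 to 2.31 in nox libraries, as multiples of the mean of the region. The 5 named for rising had 0.560 to 0.962 in EGS and 0.449 to 0.866 in nox libraries, with the trnL bin nearest to 1. These bins were chosen for their long-range change. The petL and petG bin had 1.90 ± 0.0557 in EGS and 2.31 ± 0.227 in nox libraries times the mean same-bin contacts of the region (SD, n = 4 each), and the trnC bin 2.58 ± 0.0845 in EGS and 1.95 ± 0.0956 in nox libraries. The rpoB bin was poor in same-bin contacts in both groups, at 0.560 ± 0.0366 in EGS and 0.449 ± 0.0387 in nox libraries. The part of same-bin level in the long-range differences was not tested.

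**Figure D3:**
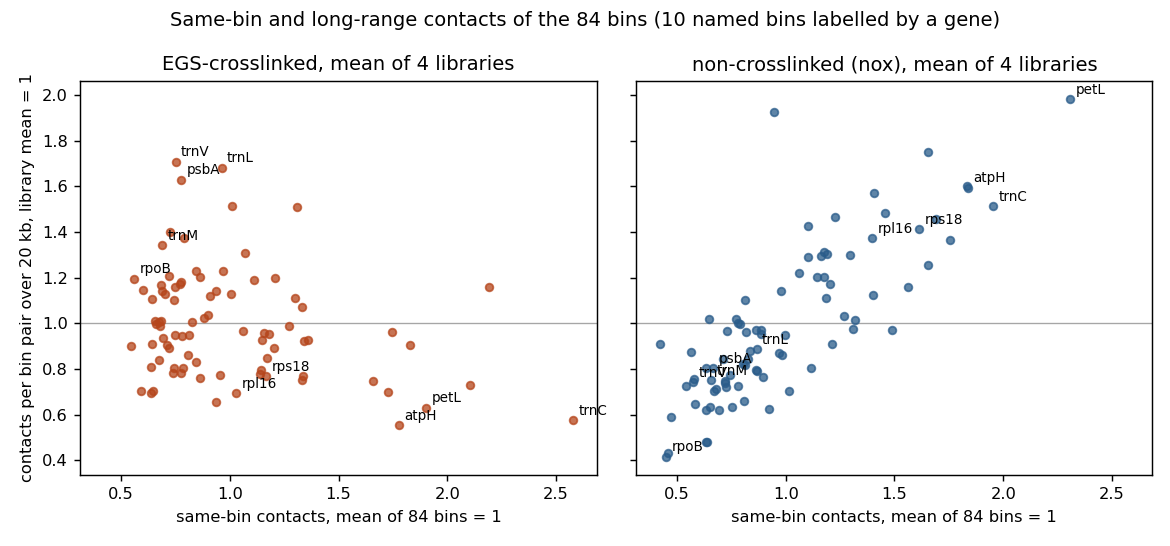
Long-range contacts per bin pair (y axis, library mean set to 1) against same-bin contacts (x axis, mean of the 84 bins set to 1) for each large single copy bin, as means of the 4 EGS libraries (left) and the 4 nox libraries (right), with 10 named bins labelled by a gene. Points climb with same-bin contacts in the nox panel and do not in the EGS panel, where the trnC, petL and atpH bins lie at 0.576, 0.630 and 0.554.

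By gene list, bins overlapping photosynthesis genes numbered 41, of which 9 were higher and 15 lower, with a median log2 change of 0.015, beside 14 higher, 38 lower and a median of -0.14 over all 84 bins (edgeR, adjusted p of 0.05). With the region fitted alone the split turned, to 19 higher and 14 lower with a median of 0.17, beside 31 higher, 32 lower and 0.030 over all bins. Of the 29 bins with genes for transcription, translation or splicing, 4 were higher and 16 lower (median -0.34), or 8 and 12 fitted alone (median -0.14). Of the 11 with accD, clpP, ycf3, ycf4 or cemA, none was higher and 5 were lower (median -0.28), or 1 and 5 fitted alone (median -0.13). The 22 bins with transfer RNA genes had 4 higher and 9 lower (median -0.099), which turned to 10 and 7 fitted alone (median 0.070). The 17 bins with the highly transcribed genes psbA, psbD, psbC, psaA, psaB, rbcL, psbE and psbB had 5 higher and 4 lower (median 0.14), or 11 and 4 fitted alone (median 0.28). A bin can overlap several lists, and the lists were chosen with earlier results known.

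Which stretches met each other was asked of the 91 block pairs. Of 355 block pairs of the whole map, 52.7% differed in summed contacts (edgeR, adjusted p of 0.05), 27.3% higher and 25.4% lower. Of the 91 members 32 differed, 9 higher and 23 lower, or 17 higher and 19 lower with the members fitted alone, 28 of the 32 passing in both fits with the same sign. DESeq2 called 16 of the 91, 2 higher and 14 lower. Normalised values did not overlap in 27 of the 91, against 39.4% of the 355.

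Block totals are sums of these pairs, so part of the overlap between called blocks and called pairs is built in, and the counts below are a description. The 2 blocks higher in total, block 1 (psbA) and block 10 (ndhJ, ndhK), enter 22 of the 91 pairs, among them 7 of the 9 higher pairs and no lower pair. The 7 blocks lower in total enter 63 of the 91 pairs, among them all 23 lower pairs and 2 higher ones. Block 3, with the ATP synthase genes, was lower in 8 of its 11 pairs and block 1 higher in 4 of its 13.

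The psbA block met the ndhJ and ndhK block (pair 1-10) with 205, 129, 82 and 47 contacts in EGS replicates 1 to 4, against 134, 82, 7 and 8 in nox replicates 1 to 4. Per bin pair and relative to the library mean this was 1.69 ± 0.118 in EGS and 0.817 ± 0.130 in nox libraries (SD, n = 4 each), and the log2 change was 0.77 ± 0.15 (SE; edgeR adjusted p = 3.59e-06). The largest increase was in pair 6-10, which joins part of rpoB, petN and psbM to the ndhJ and ndhK block, at 0.82 (edgeR adjusted p = 0.000419), a call lost with DESeq2 (adjusted p = 0.0560). Pair 1-9, from psbA to the psaA and ycf3 block, rose by 0.68 (edgeR adjusted p = 7.48e-05) and did not pass in the shallower libraries alone (edgeR adjusted p = 0.324). Pair 8-15, from psaA and psaB to psbB, rose by 0.37 (edgeR adjusted p = 0.0286), a call lost when any of 5 libraries was left out, with the replicate block (edgeR adjusted p = 0.0696), with DESeq2 (adjusted p = 0.199) and in the deeper or the shallower libraries alone (edgeR adjusted p = 0.0662 and 0.152).

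The ATP synthase block met the petL, petG and psaJ block (pair 3-14) with 101, 55, 21 and 14 contacts in EGS replicates 1 to 4, against 201, 149, 9 and 16 in nox replicates 1 to 4. The sparse replicates 3 and 4 of the nox group held few contacts, and relative to the library mean the pair had 0.616 ± 0.154 in EGS and 1.33 ± 0.208 in nox libraries (SD, n = 4 each). This was the largest decrease, with a change of -1.19 ± 0.15 on the log2 scale (SE; edgeR adjusted p = 9.83e-12). Block 3 also supplied the next 3 decreases, with blocks 16, 17 and 15, at -0.92, -0.84 and -0.83, of which pairs 3-17 and 3-15 did not pass in the shallower libraries alone (edgeR adjusted p = 0.0593 and 0.157). Pair 12-16, from accD and part of rbcL to petB, petD and rpoA, fell by 0.83 on the log2 scale (edgeR adjusted p = 0.000621), a call lost with DESeq2 (adjusted p = 0.0553).

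Against block totals, no pair passed the threshold. Expected contacts were fitted per library so that every block kept its total, and their logarithm entered edgeR as an offset. Of the 355 pairs, 0% passed, and 0 of the 91 members did. At an unadjusted p of 0.05 the count was 6 of the 91 by edgeR, beside 3.66% of all pairs. By DESeq2 it was 0 of the 91, beside 0% of all pairs, which is fewer than this threshold gives where nothing differs. The expected contacts were fitted to the same counts and take up part of each pair's own change. How much they take up was not tested. Log2 changes of the members against block totals ran from -0.41 to 0.54 with a median of -0.015, and the smallest adjusted p was 0.568 (edgeR). Their standard errors ran from 0.069 to 0.23. A 95% interval was taken for each pair from its standard error and the normal distribution. These intervals lay within ±1 on the log2 scale, from -0.75 at the lowest to 0.86 at the highest. They hold for each pair alone and not for the 91 pairs jointly. Small preferences were not resolved at this depth.

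The pair 1-10, from psbA to ndhJ and ndhK, was observed at 0.955, 0.971, 0.981 and 1.01 times its expected contacts in EGS replicates 1 to 4, and at 1.02, 0.961, 0.909 and 0.826 times in nox replicates 1 to 4. These overlapping values lie near 1, and the log2 change against block totals was -0.024 ± 0.071 (SE). Pair 3-14, from the ATP synthase genes to petL and petG, changed by -0.17 ± 0.11 (SE) against block totals, beside -1.19 in summed contacts.

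The largest changes against block totals did not pass. Pair 6-10, from rpoB, petN and psbM to ndhJ and ndhK, was at 1.12, 1.10, 0.848 and 0.654 in EGS replicates 1 to 4, and at 0.665, 0.715, 0.535 and 0.714 in nox replicates 1 to 4, with a change of 0.54 ± 0.16 (SE; edgeR adjusted p = 0.568). The groups overlapped in the shallower libraries. Pair 11-15, from atpB and rbcL to clpP and psbB, was at 1.10, 1.04, 1.53 and 1.42 in EGS replicates 1 to 4, and at 0.857, 0.871, 0.700 and 0.731 in nox replicates 1 to 4. Its groups did not overlap, as in 5 of the 91 members and 4.23% of all pairs, and its change was 0.44 ± 0.15 (SE; edgeR adjusted p = 0.794). Pair 13-17 followed at 0.39, and the largest negative changes were -0.41 in pair 5-9, -0.38 in pair 12-16 and -0.31 in pair 4-8 (edgeR adjusted p = 0.996 for these 4). These 6 pairs join blocks 4 apart, the smallest separation of any member, and hold 6 to 10 bin pairs each, where full block pairs hold 25.

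**Figure D4:**
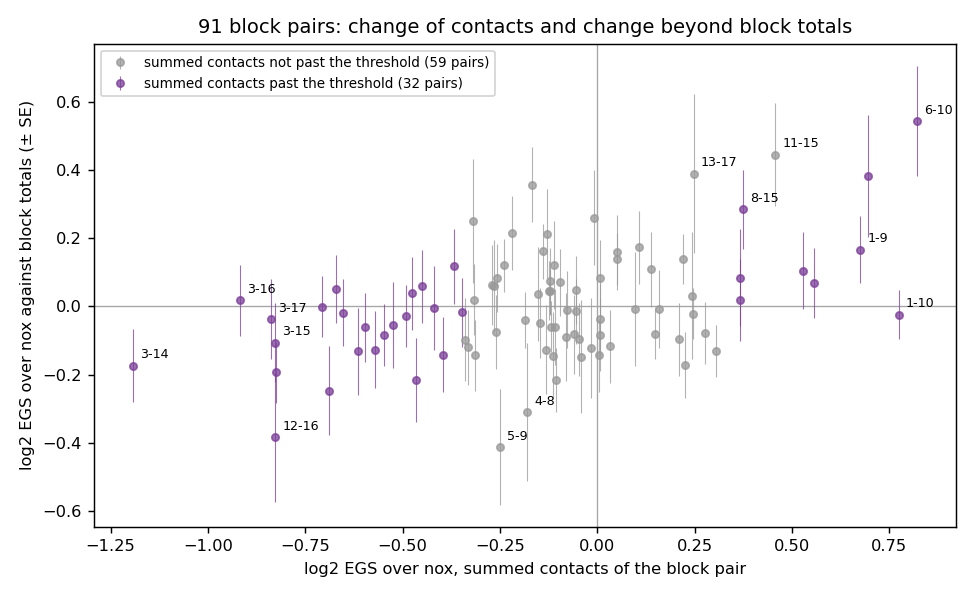
Log2 change of EGS over nox against block totals (y axis, bars ± SE) and in summed contacts (x axis) for the 91 block pairs, coloured by whether summed contacts passed the threshold, with named pairs labelled by their block numbers. Pair 3-14 lies at -1.19 in summed contacts and -0.17 against block totals, and pair 1-10 at 0.77 and -0.024.

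Within each group, the preferences left after block totals were weakly alike between libraries. Mean observed over expected of the 91 pairs ran from 0.816 to 1.41 in EGS and from 0.657 to 1.47 in nox libraries, and lay within 10% of 1 in 69 pairs in EGS and 43 pairs in nox libraries. Libraries had equal weight in these means, with a median of 7 and 11 contacts per pair in nox replicates 3 and 4. In EGS libraries the medians ran from 24 to 118. The part of counting error in the wider nox range was not tested. For correlations, the log2 ratio of observed to expected contacts was taken per library, with 1 added to both. Over the 91 pairs, these log2 ratios correlated between libraries at 0.138 within the EGS group, 0.189 within the nox group and -0.035 between groups on average. All correlations within a group were above 0, from 0.059 to 0.20 in EGS and from 0.15 to 0.26 in nox libraries. The variance of observed over expected, less its counting part, was -0.00238 ± 0.00264 in EGS and -0.0105 ± 0.0135 in nox libraries (SD, n = 4 each; two-sided exact permutation test, p = 0.257). The counting part takes no account of the fitted block totals, which lowers these values. The chi-square of the pairs per degree of freedom was 0.803, 1.08, 1.06 and 1.41 in EGS replicates 1 to 4, and 1.49, 0.899, 0.953 and 1.02 in nox replicates 1 to 4. Counting error alone gives values near 1, and the shallowest EGS library and the deepest nox library lay above it.

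The highest and lowest pairs are given as a description. In EGS libraries the highest means were in pairs 13-17 (petA and psbE to the ribosomal protein genes) at 1.41 ± 0.344, 9-13 (psaA and ycf3 to petA and psbE) at 1.33 ± 0.336 and 12-17 (accD to the ribosomal protein genes) at 1.28 ± 0.261 (SD, n = 4). The lowest were 8-12, 12-16 and 6-17, at 0.816, 0.825 and 0.826. In nox libraries the highest were pairs 5-9 (rpoB to psaA) at 1.47 ± 0.339, 2-6 (psbK and psbI to petN and psbM) at 1.40 ± 0.225 and 1-8 (psbA to psaA and psaB) at 1.30 ± 0.417 (SD, n = 4). The lowest were 6-10, 3-7 and 8-15, at 0.657, 0.725 and 0.742. Some of these pairs lay on the same side of 1 in both groups. Pair 8-12 was at 0.816 in EGS and 0.804 in nox libraries, pair 13-17 at 1.41 in EGS and 1.17 in nox libraries, and pair 2-6 at 1.21 in EGS and 1.40 in nox libraries. Pairs 13-17, 9-13, 8-12, 12-16, 5-9, 2-6, 6-10 and 3-7 join blocks 4 apart. They hold fewer than the 25 bin pairs of a full block pair and rest on fewer contacts, above all in nox replicates 3 and 4. The part of counting error in these extremes was not tested.

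**Figure D5:**
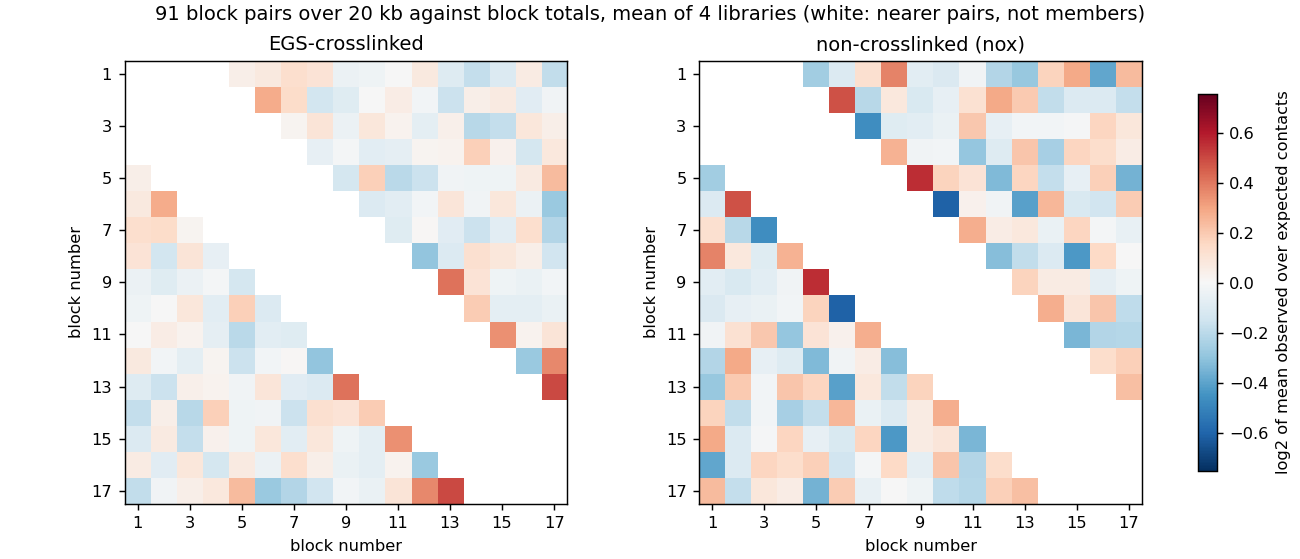
Log2 of mean observed over expected contacts against block totals for the 91 block pairs, by block number on both axes, for EGS (left) and nox libraries (right), each the mean of 4 libraries. Colours are paler in the EGS panel, where 69 of 91 pairs lie within 10% of 1, than in the nox panel with 43. Nox replicates 3 and 4 had a median of 7 and 11 contacts per pair, and the part of counting error was not tested.

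Contacts between photosynthesis genes at different loci were near their expected level. Over the 462 member bin pairs that join bins of such genes, the log2 ratio of observed to expected contacts, both summed and the expected taken from bin totals, was 0.0041, 0.0066, -0.0060 and 0.027 in EGS replicates 1 to 4, and 0.019, -0.012, -0.084 and -0.0023 in nox replicates 1 to 4. All but nox replicate 3 lay within 0.03 of 0, and the means were 0.0079 ± 0.014 in EGS and -0.020 ± 0.045 in nox libraries (SD, n = 4 each). Pairs between genes for transcription, translation or splicing averaged 0.017 ± 0.026 in EGS and 0.029 ± 0.067 in nox libraries, and pairs joining them to photosynthesis genes -0.023 ± 0.031 in EGS and 0.014 ± 0.020 in nox libraries (SD, n = 4 each). For the 66 pairs between the highly transcribed genes the values were 0.0029 ± 0.11 in EGS and 0.064 ± 0.099 in nox libraries (SD, n = 4 each). By construction all members together are near 0, and none of these scores was tested.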

How the data were processed

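Per the file headers, the deposited table holds 1-kb bin pairs of the TAIR10 plastid map, and its values are raw contact counts that the authors did not normalize. Per the submitters' processing notes, Trim Galore 0.4.1 and Juicer were used; filters on read pairs and the handling of repeat reads are not given in the sources used here. No molecular identifiers are stated, so intervals cover counting error only. Gene names came from a RefSeq table of TAIR10.1, with no coordinate of it printed; a repeat position and its image summed to 238.67 kb by contacts and to 238.649 kb by that table. The repeat was located from anti-diagonal pairs with at least 1000 contacts.

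Block totals, bin totals and block pairs were fitted over the whole map with edgeR 4.0.16 in R 4.3.3 (TMM, filterByExpr, prior count 2, Benjamini-Hochberg threshold 0.05), with DESeq2 1.42.0 as an alternative. Expected contacts were fitted iteratively per library, as bin pairs times 1 factor per block, within each pair of regions. Per-library measures used exact permutation tests. Block pair fits were run on simulated maps with and without known changes, and their outcome is not given here. The known changes were larger than any seen here against block totals, so smaller ones were not covered. The spread between simulated libraries was a set value and was not estimated from these data. Other steps used pandas 2.3.3, scipy 1.17.1 and numpy 2.4.6 under Python 3.11.15, and matplotlib 3.10.9. Named blocks, bins and pairs are up to 5 per direction with the largest log2 change among those that passed with normalised groups apart, and up to 3 that did not pass against block totals. The members and gene lists were chosen with earlier results of these data known.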

Additional observations from a re-analysis of the deposited data

Results flagged for a closer look

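In 8 of 76 groups of 4 libraries, 1 library stood apart from the other 3; chance flags about 1 in 20 such groups. In relative contact, EGS replicate 3 was high at block 1 (psbA), at 1.35. EGS replicate 4 was high at block 12 (accD), at 1.04, and EGS replicate 2 was low at block 14 (petL, petG), at 0.898. Nox replicate 4 was high at block 2 (psbK, psbI), at 1.31, and low at bin 2 (psbA, trnK), at 0.631. The same library was high in pair 3-16 (ATP synthase genes to petB and rpoA), at 1.72. Nox replicate 3 was low in pair 8-15 (psaA and psaB to psbB), at 0.122, where it held 1 contact. Against block totals, nox replicate 3 was high in pair 4-8 (rpoC2 to psaA and psaB), at 1.69, from 3 contacts.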

How the results depend on the processing

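Tests against block totals called 0 of the region's block pairs that each setting tested under all 20 settings, including expected contacts from bin totals, expected contacts that also match distance, and the pairs of 10-kb blocks. In every setting the expected contacts were fitted to the same counts and take up part of each pair's change, so the settings are not independent checks. Counts of block totals ran from 6 to 12 of 17 over the settings, those of bin totals from 36 to 63 of 84 and those of block pairs from 7 to 36 of 91. Beside the 32 block pairs reported, DESeq2 gave 16, the shallower libraries alone 7, and 10-kb blocks 14 of their pairs. Unevenness of block totals differed by 0.0405 over 30 kb and by 0.0687 in 10-kb blocks, beside 0.00393 as reported; the cause was not tested. The near to far ratio divided by that expected from block totals, a setting added after the data were seen, differed by 0.0401 (exact permutation test, p = 0.286). With each library left out in turn, the share of contacts over 20 kb differed by -2.39 to -1.73 points and the near to far ratio by 0.281 to 0.318. Deviations of same-numbered libraries correlated at -0.32 to 0.60 over block totals. Blocks are not independent, so these values cannot tell whether the replicate numbers pair the libraries. With the replicate block, an exact sign-flip test gives at best a p of 2 in 16 assignments, above the threshold, as it did for the difference of -2.11 points and for that of 0.298 in the ratio; the block gave 29 block pairs, 53 bin totals and 9 block totals. Of the named blocks, bins and pairs, 20 values no longer passed under an alternative, 9 of them for pair 8-15, and none reversed. Depth limits nox replicates 3 and 4 most, with a median of 7 and 11 contacts per block pair.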
